A study of Homo sapiens with 3 samples.

Results

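In THP-1 cells given the catalytic domain of ADAR alone, A-to-G reads were listed at 6413 sites in 1258 genes that had none in cells with the empty vector. A read with G in place of A on the transcript is called an edited read here, whatever its origin. The sites are all entries of the list deposited for that comparison, joined by position, and make up 6413 of the 16820 positions listed anywhere in the series. THP-1 is a human monocytic leukemia line grown in RPMI with fetal calf serum. Both groups received pGK-GFP retroviral supernatant made in 293T cells and were grown for 7 days before total RNA was taken. One carried no transgene in the vector (empty vector) and the other carried ADARcd, the ADAR catalytic domain with no protein joined to it. The labels do not say which promoter drives ADARcd, whether cells were sorted for GFP or cloned, or which ADAR gene the domain came from. A further library, in which the domain is fused to DDX41, enters only the count of positions above. There was 1 library per group and no replicate, so the values describe the reads of 2 libraries and not conditions.

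ADAR enzymes remove the amino group of adenosine in double-stranded RNA, and the inosine that results is read as guanosine by ribosomes and by reverse transcriptase. The human ADAR enzymes favour adenosines that follow uridine or adenosine and precede guanosine. In HyperTRIBE a hyperactive form of the catalytic domain is tied to an RNA-binding protein so that its targets are marked, and the untied domain shows where marks arise without such a protein. Endogenous editing in human cells lies largely in Alu repeats of introns and 3′ UTRs, and a small number of sites change an amino acid.

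The sites with the most edited reads, 1 per gene, are shown first, because the shared letters around the edited base recur in the results below. Each run is 21 bases of the GENCODE 29 transcript, 5′ to 3′, in DNA letters, with GRCh38 coordinates and the strand. Capitals mark the edited A between its 2 neighbours.
FTL, chr19:48966625-48966645, plus strand: aagcttatcAAGaagatgggt
RPS3A, chr4:151104490-151104510, plus strand: ttcatggtgAAGgcagtagtt
EEF1A1, chr6:73518517-73518537, minus strand: agtcaacgtTACaacggaagt
RPS2, minus strand, across a splice junction: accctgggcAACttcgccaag
PKM, chr15:72199252-72199272, minus strand: agcaagagtTAGgggccttag
RPS27, chr1:153992066-153992086, plus strand: atgttccttCAGgaggaagca
PGK1, chrX:78125899-78125919, plus strand: ggcattagcTAAaaccttcca
SSR2, chr1:156009082-156009102, minus strand: gggttagagAAGtgcttacta
TPT1, chr13:45340097-45340117, minus strand: ccgagggcgAAGgtaccgaaa
RPSA, chr3:39412334-39412354, plus strand: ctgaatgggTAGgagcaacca
RPS3, plus strand, across a splice junction: ccacagcatAACagggtctcc
The next runs are the strongest amino acid changes in genes not yet shown.
RPS29, minus strand, across a splice junction: cggtttcatTAAgttggacta
SRP14, chr15:40036472-40036492, minus strand: aaacctcctTAGagctaacat
RPS27A, chr2:55235539-55235559, plus strand: tgtctgactTACtgtttcaac
MIF, chr22:23894550-23894570, plus strand: cagctggcgCAGgccaccggc
None of these 15 edited adenosines follows a guanosine.

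Depth decided how much a site could show. The sites had a median of 286 reads in ADARcd alone (5th to 95th percentile 69 to 2170) and 27 in the empty vector (10 to 300). Every site had 0 edited reads in the empty vector, and 3 reads of its depth there are taken as the limit that a count of 0 allows. Listing required that 0, which the limit ignores, so the limit can be too low. The editing level, which is the share of a site's reads that carry the edited base in percent, lay above that limit at 46 sites (0.717%). Of the 6413 sites, 4795 had 1 edited read, 1105 had 2, 253 had 3 or 4, 144 had 5 to 9 and 116 had 10 or more. The 116 sites carried 37.3% of all 14003 edited reads, and the 10 genes with most edited reads carried 26.8%. Intervals below are exact 95% Clopper-Pearson intervals and, like the limits, cover counting error only, since PCR reads without molecular identifiers are not independent molecules.

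**Figure D1:**
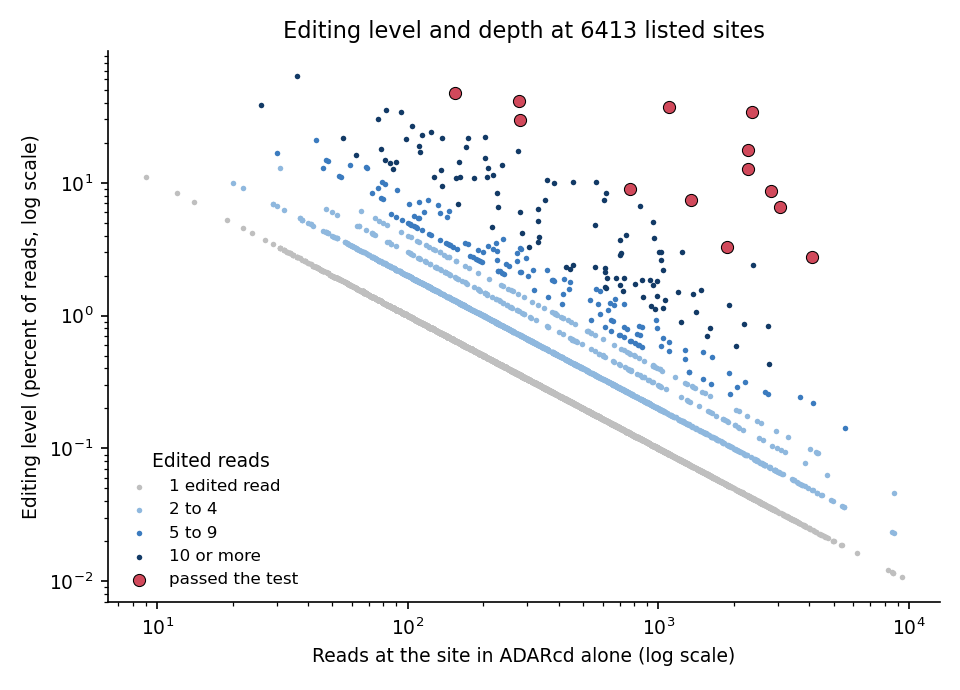
Editing level in percent against the reads at each site in ADARcd alone, both on log scales, for 6413 sites coloured by their number of edited reads. The parallel lines are sites with the same small number of edited reads. The sites that passed the test, outlined, reach from 2.78% to 47.4% and all have 10 or more edited reads.

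A two-sided Fisher's exact test with Benjamini-Hochberg adjustment over 6412 sites called 13 sites in 10 genes, a background of 0.203% of the sites tested. It compares the reads of the 2 libraries, and the listing rule of 0 edited reads in the empty vector, which the test ignores, favours small p. The 13 sites held 2983 edited reads, 21.3% of the total. The expected number below is the level in ADARcd alone times the reads of the empty vector. Each was met by 0 reads, which listing required at every site.

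EEF1A1, the elongation factor that carries aminoacyl-tRNA to the ribosome, had 4, and 3 of them change an amino acid. Its T286A site, with positions counted from 1 at the initiator methionine, was edited in 407 of 2287 reads (17.8%, 16.2 to 19.4), where 61.8 edited reads would have been expected among 347 in the empty vector. T261A followed at 8.64% (243 of 2814 reads against 0 of 409), a synonymous site at 6.53% (200 of 3065 against 0 of 346) and N331D at 2.78% (114 of 4096 against 0 of 806). The listed adenosines beside them stayed far lower. Within 10 bases of T286A the other listed EEF1A1 sites had 1 or 2 edited reads of 2190 to 2560 (0.0457% to 0.0812%), and N331S, 1 base from N331D, had 9 of 4135 (0.218%).

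RPS2, which helps form the small subunit of the ribosome, was edited at N235S in 285 of 2270 reads (12.6%, 11.2 to 14) against 0 of 423. The other adenosine of that RPS2 codon, which would give N235D, had 1 edited read of 2273 (0.044%). RPS2 also held a site just outside the threshold, K238R, with 57 of 2384 reads (2.39%) against 0 of 436 and an adjusted p of 0.0538 by Fisher's exact test. RPS3A, also of the small subunit, was edited in 414 of 1104 reads (37.5%, 34.6 to 40.4) against 0 of 211, at the last position of a codon, where the change is synonymous. The other 3 listed RPS3A sites within 25 bases had 1 or 2 edited reads each. RPS27, another small-subunit protein, was edited at R80G in 100 of 1354 reads (7.39%, 6.05 to 8.91) against 0 of 194. TPT1, which encodes a translationally controlled tumor protein, had a synonymous site at 3.3% (62 of 1877 reads against 0 of 383).

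FTL, the light chain of the iron store ferritin, had the most edited reads of any site. Its K143R site was edited in 816 of 2370 reads (34.4%, 32.5 to 36.4), where 97.1 edited reads would have been expected among 282 in the empty vector. The listed adenosine 3 bases on, FTL K144R, had 1 edited read of 2394 (0.0418%). The FTL site carried all but 20 of the 836 edited reads in its stretch of 14 sites over 272 bases.

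The 3 called sites outside coding sequence lay in the 3′ UTRs of PKM, PGK1 and SSR2. PKM and PGK1 are glycolytic kinases, and SSR2 belongs to the translocon-associated protein complex of the endoplasmic reticulum. The PKM site, 388 bases after the stop codon on the transcript, was edited in 116 of 279 reads (41.6%, 35.7 to 47.6), with 13.3 edited reads expected among 32. The PGK1 site, 79 bases after the stop codon, was edited in 83 of 280 reads (29.6%, 24.4 to 35.4), with 10.7 expected among 36. The SSR2 site, 448 bases after the stop codon, had the highest level of the called sites, 73 of 154 reads (47.4%, 39.3 to 55.6), with 7.58 expected among 16. Each had 1 other listed site within 30 bases, with a single edited read. Further along, PKM was also edited 458 bases after the stop codon in 26 of 352 reads (7.39%). It had 13 of 333 (3.9%) at 446 bases and 8 of 360 (2.22%) at 466 bases, and these PKM sites did not pass the test.

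Many of these genes have processed copies in the genome. The 21 bases printed above occur in no other annotated gene for FTL, PKM, PGK1, SSR2 and TPT1. They occur in 8 other genes for RPS3A, 15 for RPS2, 12 for RPS27, 20 for RPSA and 2 for the EEF1A1 T286A site. The 21 bases around the other called EEF1A1 sites, not printed, occur in more. The counts were 8 other genes for T261A, 12 for the synonymous site and 14 for N331D. The edited form of the EEF1A1 N331D stretch is itself the sequence of EEF1A1P4, a copy of that gene, so reads of the copy and edited reads cannot be told apart there. With only the sites whose 21 bases are in no other annotated gene, edited or not, the test called 4 sites, in FTL, PKM, PGK1 and TPT1.

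Sites that change an amino acid made up 74.7% of 4655 coding sites (73.4 to 75.9), close to the 75% of all adenosines in the coding sequences of the same transcripts for which G would change one. Among coding sites with 10 or more edited reads it was 70.8% (51 of 72, 58.9 to 81), an interval that holds the background. Among changes that did not pass the test, RPS2 K238R, given above, had the most edited reads. RPS3 Y107C followed with 48 of 950 reads (5.05%) against 0 of 78. RPS29 K54E was edited in 46 of 457 reads (10.1%) against 0 of 38, and RPS27A Y148C, in the gene that encodes ubiquitin fused to a ribosomal protein, in 45 of 606 (7.43%) against 0 of 93. RPS14 had K61R at 3.84% and Q83R at 3.01%. None of these sites passed the test, and SRP14 and MIF, given below, each had a site with more edited reads than RPS14 K61R.

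Several other proteins had high levels at low control depth. SRP14, a subunit of the signal recognition particle, was edited at R88G in 45 of 203 reads (22.2%, 16.7 to 28.5) against 0 of 24. MIF, a cytokine of macrophages, was edited at Q29R in 38 of 384 (9.9%) against 0 of 35. Both had an adjusted p of 1 by Fisher's exact test. LMNA K542R, in nuclear lamin A, had 19 of 112 reads (17%) against 0 of 12, and MKI67 K2185R, in the proliferation marker Ki-67, had 21 of 98 (21.4%) against 0 of 16. The limit in the empty vector was 25% for LMNA, above its level, and 18.8% for MKI67. MAN2B1, the lysosomal alpha-mannosidase, was edited at Y295C in 23 of 76 reads (30.3%, 20.2 to 41.9) against 0 of 12, a depth that allows up to 25% in the empty vector. The LMNA, MKI67 and MAN2B1 sites did not pass the test.
MAN2B1, chr19:12663332-12663352, minus strand: ctggtcgatTACttcctaaat

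Changes of a stop codon were seen at 13 sites (0.279% of coding sites, 0.149 to 0.477), against 0.145% of all coding-sequence adenosines. All 13 turn the stop codon into tryptophan, and 10 of them rest on 1 edited read. PRKDC, a kinase of DNA repair, had 3 of 110 reads (2.73%, 0.566 to 7.76), PRTN3, the granule protease proteinase 3, had 2 of 1027 reads (0.195%), and AP2M1, a clathrin adaptor subunit, had 2 of 128 (1.56%). No stop codon reached 5 edited reads.

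SON, a nuclear protein needed for splicing, showed the same change along a tandem repeat. Its exon held 7 sites in 157 bases, and 4 of them, each 30 bases from the next, had 5 or more edited reads and change a serine to glycine. S759G was edited in 32 of 94 reads (34%, 24.6 to 44.5) against 0 of 10. S769G was edited in 6.93% of its reads, S779G in 5 of 100 (5%) and S789G in 6 of 110 (5.45%). The interval of S759G lies above those of the other 3, whose intervals overlap. The 4 runs are printed because they share the edited triplet, TAG, in nearly the same letters.
SON S759G, chr21:33551496-33551516, plus strand: gttagcgtcTAGcaccatgga
SON S769G, chr21:33551526-33551546, plus strand: gttagcaacTAGctccatgga
SON S779G, chr21:33551556-33551576, plus strand: gttagcaacTAGctccatgga
SON S789G, chr21:33551586-33551606, plus strand: gttagcaacTAGcactatgga
The S769G and S779G runs are identical, so these letters alone do not place a read between them. None of the SON sites passed the test, at 10 to 16 reads in the empty vector.

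SPN, which encodes the leukocyte surface sialophorin CD43, had the stretch with the most sites of 5 or more edited reads. In its 3′ UTR, 21 sites lay within 238 bases, 9 of them with 5 or more edited reads, and levels ran from 0.568% to 24.2%. Reads there were 99 to 209 in ADARcd alone, with a median of 13 in the empty vector. Editing was uneven along it. The site 368 bases after the stop codon was edited in 30 of 124 reads (24.2%, 17 to 32.7), while the site 364 bases after it, 4 bases away, had 4 of 118 (3.39%, 0.931 to 8.45).
SPN, chr16:29665289-29665309, plus strand: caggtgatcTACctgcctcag
These letters belong to the Alu family. The edited form of the run occurs in 30 other annotated genes, so misplaced reads of another copy cannot be told apart from edited reads there. No SPN site passed the test, and the lowest limit in the empty vector over the stretch was 16.7%.

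**Figure D2:**
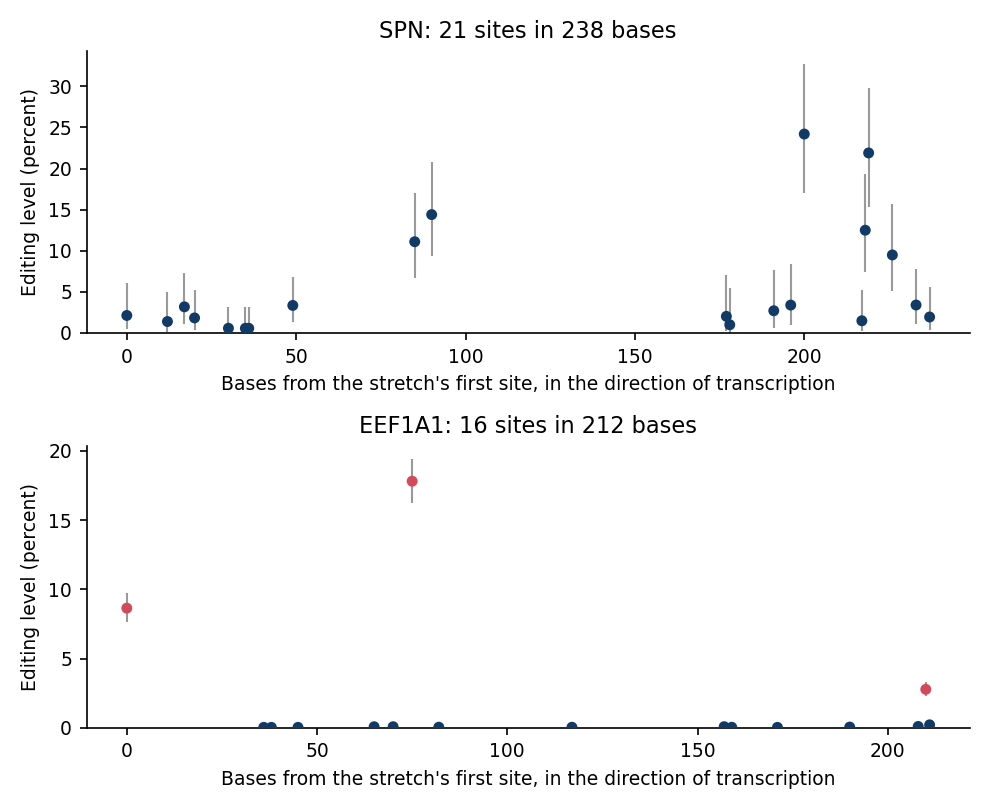
Editing level in percent, with exact 95% intervals, against the distance in bases from the first site in the direction of transcription, for the SPN stretch of 21 sites in 238 bases (upper panel) and the EEF1A1 stretch of 16 sites in 212 bases (lower panel). Red points passed the test. In SPN sites of intermediate level lie among low ones, and in EEF1A1 all but the 3 red sites are at or below 0.218%.

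Further 3′ UTR sites with 10 or more edited reads reached high levels. RPL7L1, a relative of a ribosomal protein, was edited in 29 of 82 reads (35.4%, 25.1 to 46.7) against 0 of 16. QKI, an RNA-binding regulator of splicing, was edited in 10 of 26 (38.5%, 20.2 to 59.4) against 0 of 10. MCM4, a subunit of the replicative helicase, was edited in 28 of 104 (26.9%, 18.7 to 36.5) against 0 of 16. P4HB, a protein disulfide isomerase of the endoplasmic reticulum, was edited in 52 of 617 reads (8.43%, 6.36 to 10.9) against 0 of 20. None passed the test. No site reached 90%.

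The single highest level had another base in the reference. At RARS, the arginyl-tRNA synthetase, 23 of 36 reads (63.9%, 46.2 to 79.2) had the edited base G against 0 of 10 in the empty vector, and the annotated transcript has that G at this position.
RARS, chr5:168510592-168510612, plus strand: aaacacgttCGGgtgaaacag
Here the middle capital is the reference G. There were 5 such sites among 6217 on an annotated exon. Among the others were HLA-B (27 of 209 reads, 12.9%), which encodes a variable MHC class I heavy chain, and HIST1H2BE (1 of 414). The 5 sites enter no count of neighbouring bases, codons or folds below, and the cause of the difference from the reference was not tested.

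Neighbouring bases changed with the number of edited reads. At sites with 10 or more, the base before the edited A was T (uridine in RNA) in 43.9% (34.6 to 53.5, 50 of 114) and G in 4.39% (1.44 to 9.94). Over all 966374 adenosines of the same transcripts T came before in 17.5% and G in 25.6%. This background counts each adenosine once and is not matched to the sites by region or depth. The base after was G in 53.5% (43.9 to 62.9) against 28.2% of all adenosines, and T in 6.14% against 22.5%. These intervals do not reach the background values.

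Sites with fewer reads lay nearer the background before the edited A and less so after it. With 1 edited read, T came before in 15.3% (14.2 to 16.3) and G in 27.7% (26.4 to 29), while G followed in 38.4% (37 to 39.8), above the 28.2% of all adenosines. Coding exons held 74.3% of the sites with 1 edited read, and neighbours over coding adenosines alone were not computed. Over the classes the share of T before went from 15.3% at 1 read to 17.2% at 2, 30.9% at 3 or 4 and 45.8% at 5 to 9. The share of G before went from 27.7% to 23.3%, 13.4% and 4.23%. The intervals of T before do not overlap between 2 reads and 3 or 4 (15 to 19.6 and 25.2 to 37.1), nor between 3 or 4 and 5 to 9 (25.2 to 37.1 and 37.4 to 54.3). Intervals treat sites as independent, although sites of 1 gene share reads.

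Among triplets, TAG made up 4.23% of sites with 1 edited read and 17.5% of those with 10 or more, against 3.42% of all adenosines. TAC, the triplet of the EEF1A1 T286A, RPS27A and MAN2B1 sites, made up 4.51% and 17.5%, against 3.74%. AAG, the triplet of the FTL, RPS3A and SSR2 sites, made up 13.2% with 1 read and 21.1% with 10 or more, against 8.4%. GAA made up 9.39% at 1 read and 0 of 114 at 10 or more, which allows up to 3.18%, against 8.22% of all adenosines. CAG, the triplet of the RPS27 and MIF sites, made up 11.4% and 10.5% in these classes, whose intervals overlap (10.5 to 12.4 and 5.56 to 17.7), against 8.83%.

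**Figure D3:**
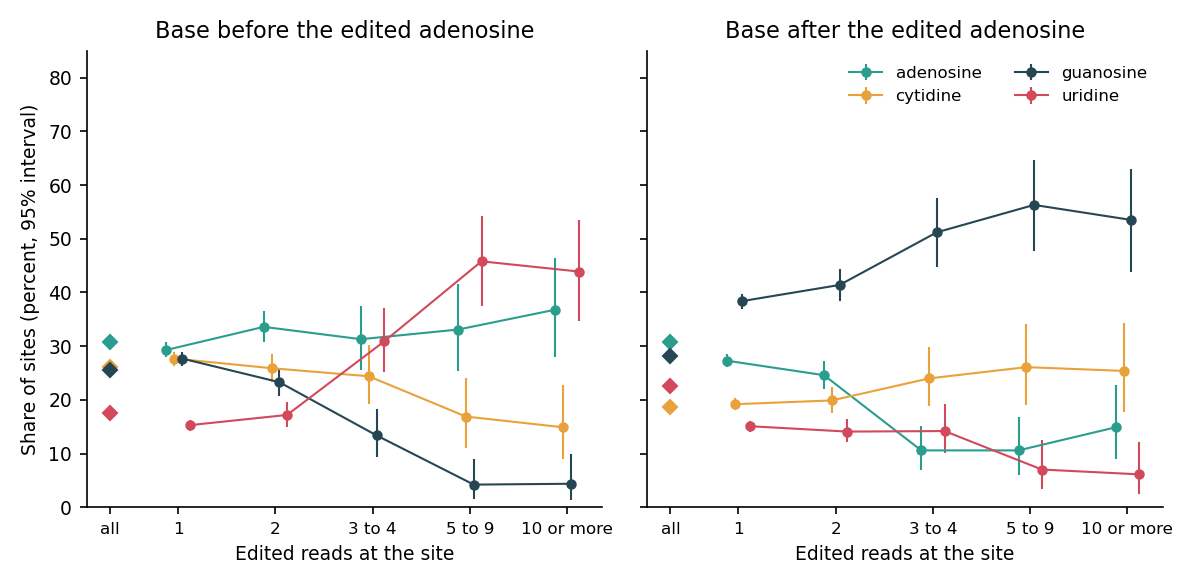
Share of sites in percent, with exact 95% intervals, by the base before (left) and after (right) the edited adenosine, against the number of edited reads at the site. Diamonds at the left of each panel are all adenosines of the same transcripts. Uridine before goes from 15.3% at 1 read to 43.9% at 10 or more and guanosine before from 27.7% to 4.39%, while guanosine after stays above its diamond in every class.

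Reads with the other 2 bases were counted at the same positions; they are other kinds of mismatch, and the rate of A-to-G read errors was not measured. On the transcript strand, C made up 0.0691% of reads in ADARcd alone (0.0664 to 0.0718) and 0.0749% in the empty vector (0.0673 to 0.083), and T made up 0.0293% and 0.0335%. Their intervals overlap between the libraries. At sites with 1 edited read the edited base made up 0.18% of the reads of ADARcd alone, against 0.0576% for C and 0.0295% for T, but listing required at least 1 edited read and none in the empty vector. Of the 6413 sites, none had a higher share of C and T in ADARcd alone by Fisher's exact test with Benjamini-Hochberg adjustment, 1 had a lower share, and 24 had an unadjusted p under 0.05.

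Sites lay mainly in coding exons, and the share in 3′ UTRs was larger in the classes with more edited reads. Coding exons held 72.7% (71.6 to 73.8), 3′ UTRs 20% (19 to 21), exons of non-coding transcripts 2.81% and introns 1.98%. From 1 edited read to 10 or more, the 3′ UTR share went from 18.3% (17.2 to 19.4) to 33.6% (25.1 to 43) and the coding share from 74.3% (73 to 75.5) to 63.8% (54.4 to 72.5). Neither pair of intervals overlaps. No site with 10 or more edited reads lay in an intron (0 of 116, up to 3.13%). Where a position overlaps several transcripts a coding exon took priority, and counting every overlapping region put 39.9% of sites in a 3′ UTR.

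**Figure D4:**
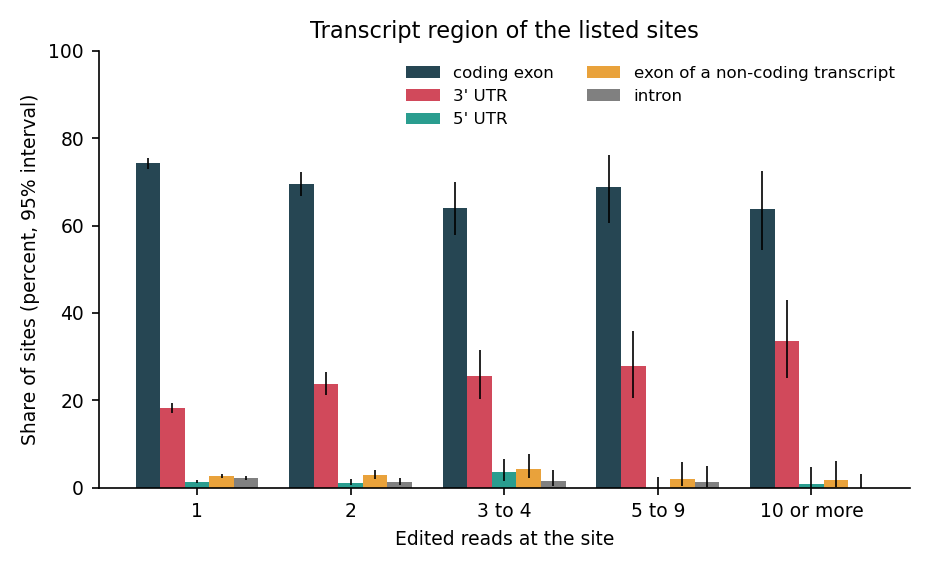
Share of sites in percent, with exact 95% intervals, in each transcript region, by the number of edited reads at the site. Coding exons hold the most in every class, from 74.3% at 1 read to 63.8% at 10 or more, and 3′ UTRs go from 18.3% to 33.6%.

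Pairing of the edited A was computed from predicted folds of the transcript with 100 bases on either side. It was paired at 31.2% of sites with 10 or more edited reads (22.7 to 40.8, 34 of 109), against 40.9% of the other adenosines of those windows (39.6 to 42.3), with intervals that overlap. With 50 bases on either side the shares were 22% (14.6 to 31) and 37.3% (35.4 to 39.2), which do not overlap. With 5 or more edited reads and 100 bases on either side they were 31.4% (25.6 to 37.7) and 41.1% (40.2 to 42), which do not overlap. With 1 edited read and 100 bases the difference had the other direction. The edited A was paired at 39.9% (38.5 to 41.4) against 37.3% of other adenosines (37.1 to 37.5), which do not overlap. The folds are computed for single windows and say nothing of pairing with distant sequence.

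Of all sites 63.1% (61.9 to 64.3) had another within 100 bases, and 82.8% (74.6 to 89.1) of those with 10 or more edited reads did. The share that deep reading of few transcripts would give was not computed. Deep genes had long runs of sites with few edited reads. CAP1, an actin-binding protein, had 36 sites in 911 bases of its 3′ UTR with a median of 2080 reads, and its highest level there was 0.867%. ACTB, cytoplasmic actin, had 25 sites in 310 bases of coding exon at 3217 to 4632 reads, none above 0.245%. PPT1, a lysosomal thioesterase, had 27 sites in 526 bases of its 3′ UTR, the highest at 2.63%. These runs differ from SPN, where the median of the stretch was 2.7% at a median of 144 reads. At that depth 1 edited read is already a higher level than in the deep runs, so these levels are not compared at equal depth.

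Among gene groups, all counts are read against the whole list, in which 4.05% of sites had 5 or more edited reads and 0.203% were called. At that share a group of this size holds few called sites or none, so a group without one is not set apart. The groups differ in depth, and the shares with 5 or more edited reads are not matched for it. Median reads in ADARcd alone were 856 for elongation factors, 466 for glycolytic enzymes and 154 for spliceosome genes. Genes of the small ribosomal subunit had 357 sites in 32 genes, 30 of them (8.4%) with 5 or more edited reads, and 4 called sites. Genes of the large subunit had 501 sites in 45 genes, 26 (5.19%) with 5 or more, and none called. RPL15 had the highest level of that group, 31 of 203 reads (15.3%, 10.6 to 21), and RPL13A H143R had 23 of 1916 (1.2%). Median levels were 0.134% and 0.152% at median depths of 961 and 814 reads, below the 0.434% of all sites, whose median depth was 286.

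Elongation factors had 186 sites in 7 of 8 genes, 17 (9.14%) with 5 or more edited reads and 5 called, 4 in EEF1A1 and 1 in TPT1, which was listed with them though it is better known as a growth-linked protein. EEF2, the translocase, had 51 sites and at most 3.71% (K842R), and EEF1G had 27 sites and at most 2.99% (N130S). Glycolytic enzymes had 135 sites in 10 of 17 genes, 11 (8.15%) with 5 or more and 2 called. GAPDH K334R had 23 of 1047 reads (2.2%) and ALDOA Y302C 18 of 988 (1.82%). Of the iron genes, FTL held 890 of 901 edited reads, and FTH1, the ferritin heavy chain, had 6 sites with at most 3 of 256 reads. Signal recognition, translocon and folding genes of the endoplasmic reticulum had 131 sites in 12 of 21 genes, 5 with 5 or more, of which SSR2 was called.

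Further groups lay on both sides of the 4.05%. The MCM helicase and proliferation genes had 8 sites with 5 or more edited reads (7.92% of theirs), snoRNA host genes without a ribosomal protein 6 of 87 (6.9%), monocyte granule and lysosome genes 9 of 145 (6.21%) and initiation factors 8 of 147 (5.44%). Actins and actin-binding genes had 13 of 433 (3%). None of these groups had a called site, where 0.203% of all sites were called. Chaperones had 148 sites in 14 genes, 1 of them (0.676%) with 5 or more edited reads, in HSPA8. Histone genes had 180 sites in 51 genes and spliceosome genes 50 sites in 16 of 33, none with 5 or more. The hnRNP genes had 167 sites in 19 genes, 3 with 5 or more, with HNRNPA1 highest in edited reads at 12 of 700 (1.71%). Mitochondrially encoded genes had 193 sites in 13 genes at a median of 1046 reads, 2 with 5 or more, and ND4 T62A reached 1.41% (14 of 990). MALAT1 and TALAM1, nuclear RNAs on opposite strands of 1 locus whose reads cannot be told apart here, had 112 entries and none with 5 or more.

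Genes known as endogenous substrates had 40 sites in 9 of 29 genes, 4 with 5 or more edited reads. One of the 4 is the RARS site with G in the reference, given above, and RPL7L1 held 2. The last was CCNI K274R in cyclin I with 5 of 145 reads (3.45%) against 0 of 21. Of the editing enzymes and the fusion partner, ADAR had 2 sites with 3 edited reads in all, the better read at 2 of 108 (1.85%) against 0 of 21. ADARB1 and DDX41 had none.

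Cell identity could be read only through listed sites. Of 24 monocytic markers 18 had a site, among them LYZ, AZU1, CTSG, PRTN3 and SPI1, with median depths per gene of 95 to 1028 reads in ADARcd alone and 10 to 65.5 in the empty vector. The monocytic markers MPO, CD33, ITGAM, CSF1R, FCGR2A and MNDA had no site. None of 8 T cell, 5 B cell, 7 erythroid and 6 epithelial or kidney markers had one. AZU1, the granule protein azurocidin, was highest in edited reads among the monocytic markers, with 40 over 16 sites and at most 1.06%. LYZ, lysozyme, reached 4.63% (10 of 216 reads against 0 of 27).

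The 2 libraries differed in reads at nearly every site. Reads in ADARcd alone over reads in the empty vector had a median of 8.77 (5th to 95th percentile 4.35 to 20.4). Over 414 genes with 5 or more sites the median of the gene ratios was 8.95 (5.3 to 17.2). Library totals were not used here, so a ratio is read against that median. By class it was 8.78 at 1 edited read and 8.93 at 10 or more.

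The extremes carried different annotations. HFM1, a meiotic helicase gene, had the lowest ratio, 0.973 (0.407 to 1.3 over 11 sites, all in introns), with a median of 363 reads in ADARcd alone and 384 in the empty vector. The ribosomal RNA entries RNA28SN2 and RNA45SN2, which share their 6 sites, had 1.61, SLCO5A1, a transporter gene with its 5 sites in introns, 1.97, and RN7SK, a small nuclear RNA that restrains transcription elongation, 3.12. The bases around sites in introns were not available, so copies elsewhere of those in HFM1 and SLCO5A1 were not looked for. Whether their reads come from these genes was not tested. At the other end RPS16 had 47.4 (35.8 to 70.8 over 8 sites), with a median of 727 reads against 13.5. ELANE, neutrophil elastase, followed at 38.4, the mitochondrial ND3 at 31.1, RPLP1 at 30.8 and HSPB1, a small heat shock protein, at 27.9. As a group the mitochondrially encoded genes had a median ratio of 18.2, and the 2 nuclear RNAs 22.4. Since a site needs 10 reads in the empty vector, genes low there enter only through their deepest positions. With 1 library per group, differences of expression and of library make-up cannot be told apart.

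**Figure D5:**
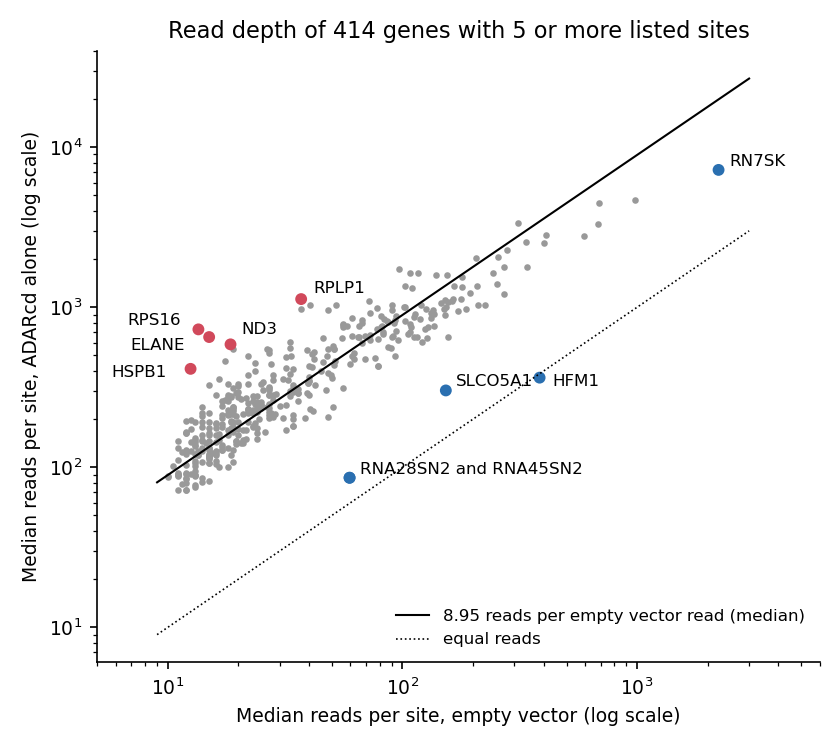
Median reads per listed site in ADARcd alone against the empty vector, both on log scales, for 414 genes with 5 or more sites. The solid line is the median ratio of 8.95 and the dotted line equal reads. HFM1 sits on the dotted line, and RPS16, ELANE, ND3, RPLP1 and HSPB1 lie above the solid line.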

How the data were processed

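The files deposited by the authors hold counts, per the file headers: reads with each of the 4 bases, and their total, at each listed position in 2 libraries, with no normalization. CASAVA 1.4, FastQC 0.11.7 and STAR 2.5 are named in the submitters' processing notes. These notes also name the mouse build mm10, but 98.2% of sites lie inside the named gene of human GENCODE 29 (GRCh38) and 99.9% of exonic sites have A on the transcript. Which tool called the sites is not given in the sources used here. Columns name no library, so the list's title and the mark on its control columns were used, and the strand was read from whether A or T filled the control reads. Listed values show at least 1 edited read in ADARcd alone, and 0 edited and 10 or more reads in the empty vector.

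The 6547 entries were joined by position into 6413 sites. Sites with at least 10 reads in each library were tested by a two-sided Fisher's exact test (scipy 1.17.1) with Benjamini-Hochberg adjustment at 0.05, and the test was tried on simulated data. Bases, codons and folds (ViennaRNA 2.7.2, 100 bases on either side) came from GENCODE 29 transcripts, in place of the genome bases first planned, since no genome was given. A fold could be computed for 5929 sites.

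Named sites are those called, those with most edited reads, highest level or strongest amino acid change, the densest stretches, up to 4 genes per list and extreme read ratios. The SPN, SON, MAN2B1 and RARS sequences were chosen after their values were seen. Members and lists were chosen with earlier results of these data known. Of the called sites, 1 is not reported here. Alternatives covered read minimums, adjustment, regions, transcripts and windows.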

Additional observations from a re-analysis of the deposited data

How the results depend on the processing

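Of 36 alternatives to 11 results, 17 left the value within its interval or, for the count of called sites, within 1.5 times, and 19 moved it further. Whether a direction reversed was not tested. A or U came before in 47.8% of all sites, against 48.2% of all adenosines, and in 57.3% at 2 or more edited reads. The edited A was paired at 39.2% against 37.6% of other adenosines, and at 37.1% against 38.4% at 2 or more edited reads. The count of 13 called sites was 10 with Bonferroni adjustment, 14 with only sites of 2 or more edited reads and 6 with reads halved. It was 4 with only sites whose 21 bases are in no other annotated gene, an alternative chosen after seeing the data. SSR2 is lost there although its own 21 bases are in no other gene. Restricting to sites with 2 or more edited reads gave a median level of 0.87%, a 3′ UTR share of 25.2%, a coding share of 68.2%, G after the edited A in 45.1%, A or U before in 57.3%, neighbours within 100 bases among themselves in 38.3% and the edited A paired in 37.1%. With 5 or more edited reads G followed in 55.1% and A or U came before in 79.7%. Without mitochondrial sites the median level was 0.457% and the median read ratio 8.66. The ratio was 8.48 at 20 or more reads in the empty vector and 7.71 as a median over genes. Counting all overlapping regions gave a 3′ UTR share of 39.9%. A neighbour lay within 50 bases for 53.5% of sites and within 200 bases for 69.6%, and in folds with 50 bases on either side 35% of edited A were paired. The cause of these shifts was not tested. No paired analysis was possible because each group has 1 library, and leaving out a library leaves no comparison. At the median of 27 reads in the empty vector most levels cannot be tested.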
